A study of Mus musculus with 23 samples.

Results

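A group of 7 microRNAs known from leukocytes and from inflammatory signalling was followed through mouse lung development. By their identifiers in the table they are miR-150-5p (MIMAT0000160), miR-146a-5p (MIMAT0000158), miR-146b-5p (MIMAT0003475), miR-142-3p (MIMAT0000155), miR-142-5p (MIMAT0000154), miR-223-3p (MIMAT0000665) and miR-155-5p (MIMAT0000165). They were taken from a list of names and identifiers, not by their values, and all 7 were among the 602 microRNA probes of the panel. The cells were wild-type C57BL6 lung cells of 2 kinds, type II pneumocytes (AT2, sorted on CD326) and endothelial cells (EC, sorted on CD31). They were taken on 2 embryonic days, E16.5 followed by E18.5, and on 4 days after birth, P1, P7, P14 as well as P28. The AT2 group had 13 libraries, 2 at each stage and 3 at P28, and EC had 10, 2 at each stage but 1 at E18.5 and 1 at P1. No treatment, transgene or mutant allele was involved. The labels call the CD326-sorted cells type II pneumocytes at every stage, although CD326 marks epithelial cells in general. CD31, the adhesion molecule PECAM1, is also carried by platelets and by several kinds of leukocyte, and the labels used here mention no step that removes them.

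A microRNA is a short RNA that guides an Argonaute protein to messenger RNAs through its seed, bases 2 to 8, and lowers their translation and stability. The miR-142 hairpin, which gives both a 5p and a 3p product, is a general marker of blood-forming lineages. miR-223-3p is the classic myeloid microRNA of neutrophils and monocytes and is abundant in platelets, and miR-150-5p is the microRNA of mature lymphocytes, where it represses Myb. miR-155-5p is switched on in activated lymphocytes and macrophages, and miR-146a-5p is induced by NF-κB. Both miR-146a-5p and miR-146b-5p, which share a seed, repress Irak1 and Traf6, a brake that is also known in endothelial cells. In bulk samples such as these, fewer cells of a type and less RNA per cell cannot be told apart.

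The mature sequences are shown because the miR-146 pair shares a seed while the others do not, and because the 2 products of the miR-142 hairpin behaved differently on the panel. They are from RefSeq (GRCm38.p6), 5′ to 3′, with the seed in capitals. RefSeq names the miR-142 products miR-142a, and 6 of the 7 members were matched in its table by name. miR-150-5p is given here by name alone.
miR-146a-5p: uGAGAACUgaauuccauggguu
miR-146b-5p: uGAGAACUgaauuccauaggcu
miR-142-3p: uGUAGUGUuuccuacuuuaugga
miR-142-5p: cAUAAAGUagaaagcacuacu
miR-223-3p: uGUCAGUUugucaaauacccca
miR-155-5p: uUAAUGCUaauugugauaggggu

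The miR-146 products are both 22 bases long and differ at 2 positions outside the seed, G18A and U21C, counted from the 5′ end with the miR-146a-5p base first. They come from different chromosomes, miR-146a-5p from chr11:43374435-43374456 on the minus strand and miR-146b-5p from chr19:46342790-46342811 on the plus strand. miR-223-3p lies at chrX:96242884-96242905 and miR-155-5p at chr16:84714143-84714165, both on the plus strand. The miR-142 products are the arms of 1 hairpin at chr11:87756864-87756927 on the plus strand, shown here with the 5p arm and then the 3p arm in capitals.
Mir142 hairpin: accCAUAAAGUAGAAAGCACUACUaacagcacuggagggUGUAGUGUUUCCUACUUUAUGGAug

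Values are nCounter barcode counts multiplied by 1 factor per library, called scaled counts here. The recovered microRNA counts ran from 26640 in AT2 P28 replicate 1 to 571724 in EC P1 replicate 1, and the factors from 0.296 to 7.93. A library's background limit was the mean plus 2 SD of its 8 low ERCC control rows, and after scaling it lay between 6.16 and 95.1. Its median was 14.5 in AT2 libraries and 35.7 in EC, so a probe at background reads higher in EC after scaling. In AT2 P28 replicate 1 the limit was only 1 recovered count, so counts of 2 for miR-142-3p and 4 for miR-150-5p are listed as above background there. Of the 602 probes, 302 were above background in at least 2 libraries and were tested, 6 of the 7 members among them. EC P14 replicate 2 stood apart. Over the 296 tested probes that are not members, all 23 libraries were most like a library of their own cell type with the values as deposited, EC P14 replicate 2 being nearest to the EC P1 library (r = 0.941, across probes). With all values below 95.1 raised to that level, 22 of the 23 were, and EC P14 replicate 2 was most like AT2 P7 replicate 2 (r = 0.964, against 0.955 for the nearest EC library). Differences that include EC are therefore given without it as well. Shared IDs in the titles tie an AT2 and an EC library to the same specimen in 9 cases.

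**Figure D1:**
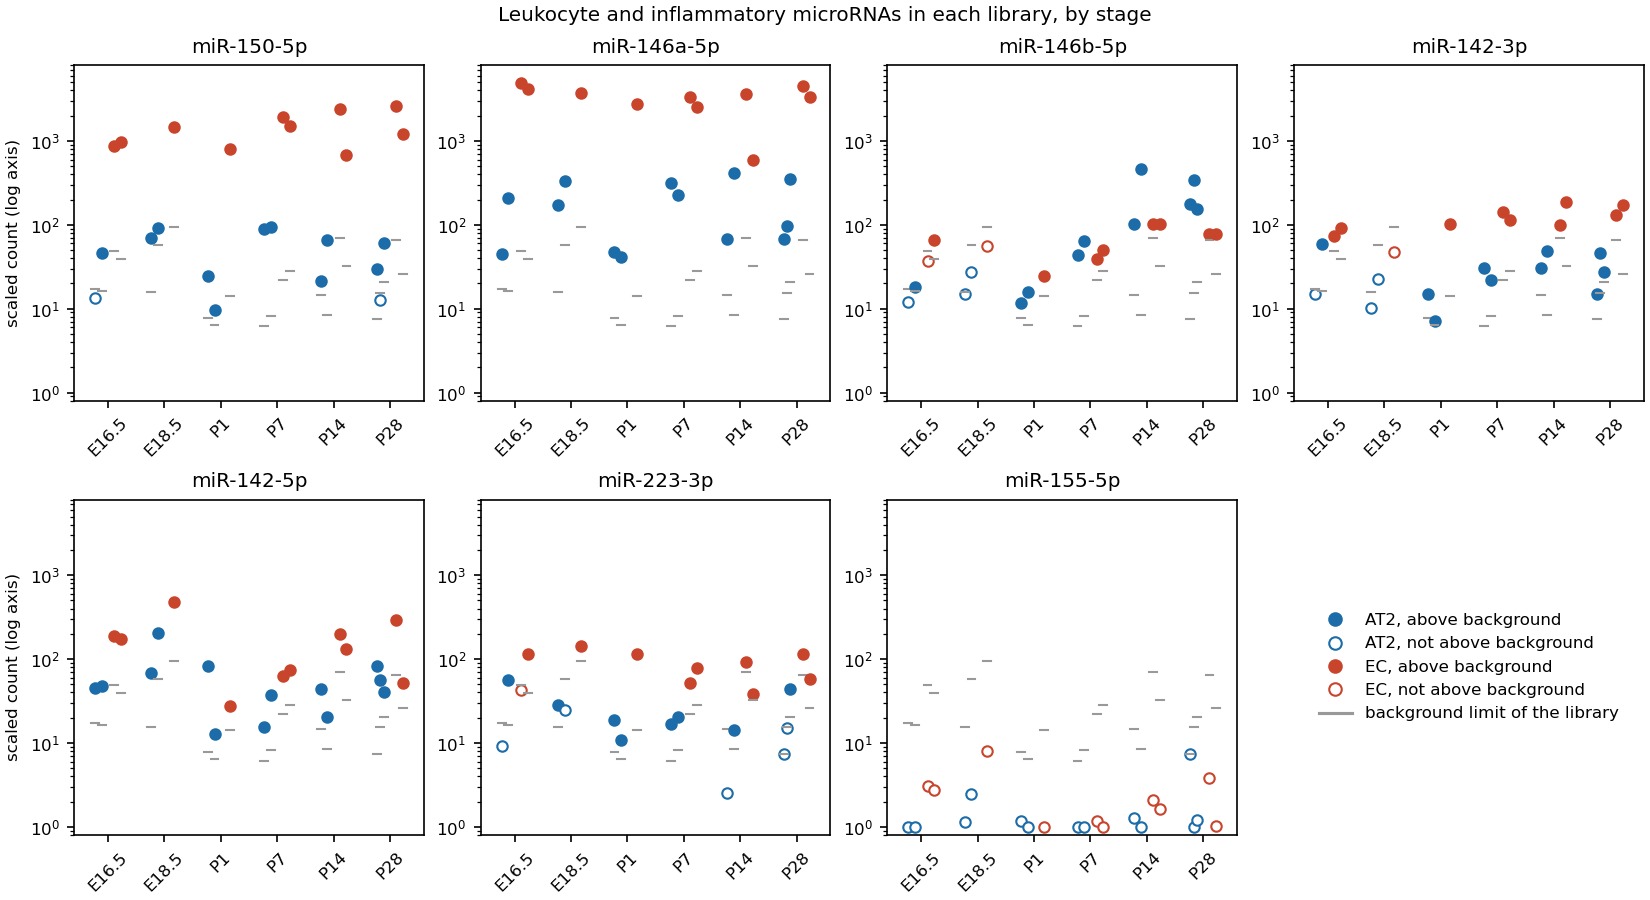
Scaled counts (log axis) of the 7 microRNAs in each library by stage, AT2 to the left of EC at each stage; each point is a library, open where its count was not above the library's background limit (grey dash). miR-150-5p and miR-146a-5p are lower in every AT2 library than in any EC library, miR-146b-5p climbs to 459 in AT2 cells at P14, and miR-155-5p is open in all 23 libraries.

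Across the 6 stages, 5 of the 6 tested members were lower in AT2 cells than in EC and none was higher. The tests were limma contrasts on log2(scaled count + 1), with Benjamini-Hochberg adjustment over the 302 probes and a threshold of 0.05. Of all tested probes, 47.7% were called lower in AT2 cells and 19.5% higher, so a call by itself is common in this comparison. The median log2 difference was -2.21 over the 6 members and -0.43 over all tested probes. Scaled to the microRNA total instead, the median of all probes moved to 0.33, and 27.3% of the calls were lower in AT2 cells, against 70.9% of the calls as deposited. Of the 6 members 4 were then called, and miR-142-5p was not (-0.65; limma, adjusted p = 0.163). Since the labels do not state separate animals, the p-values measure only how far these libraries differ among themselves, and that spread may be technical.

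miR-150-5p, the lymphocyte microRNA, was at 93.95 scaled counts or less in the AT2 libraries and at 682 or more in every EC library. The AT2 libraries had 13.5 and 45.9 at E16.5, 69.3 and 91.7 at E18.5, 24.3 and 9.54 at P1, 89.3 and 93.95 at P7, 21.5 and 65.3 at P14, and 29.7, 12.8 and 60.8 at P28. The EC libraries had 882 and 971 at E16.5, 1451 in the E18.5 library, 791 in the P1 library, 1912 and 1521 at P7, 2403 and 682 at P14, and 2601 and 1222 at P28. The highest AT2 library, at P7, was below the lowest EC library, EC P14 replicate 2, so the groups did not overlap at any stage. Such a gap over all libraries, AT2 below EC, was seen for 4.97% of the tested probes. The count was above background in 11 of 13 AT2 libraries, and with the other 2 set to their limits the geometric mean was at least 34.2-fold lower in AT2 cells.

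The log2 difference of miR-150-5p, AT2 minus EC, was -5.01 ± 0.32 (SE, 13 and 10 libraries; limma, adjusted p = 1.18e-09). By size it stood 3rd among the 302 probes. In all 9 shared specimens the AT2 library was the lower one, by a mean log2 difference of -4.85 ± 0.81 (SD, n = 9). Without EC P14 replicate 2 the difference was -5.17, and with values below 95.1 raised to that level it was -3.72. All 33 alternatives kept the call. Split by age, it was -4.66 ± 0.58 before birth and -5.06 ± 0.41 over P7, P14 and P28, or -5.36 late without EC P14 replicate 2.

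miR-146a-5p, the NF-κB-induced brake on Irak1 and Traf6, had the same division between the cell types and was above background everywhere. The AT2 libraries had 44.8 and 208 at E16.5, 172 and 330 at E18.5, 47.5 and 41.3 at P1, 316 and 226 at P7, 67.0 and 419 at P14, and 66.9, 96.8 and 353 at P28. The EC libraries had 4873 and 4140 at E16.5, 3710 in the E18.5 library, 2786 in the P1 library, 3321 and 2523 at P7, 3648 and 600 at P14, and 4554 and 3369 at P28. Again no AT2 library reached any EC library, and the EC library nearest to the AT2 range, at 600, was EC P14 replicate 2. The probe took a median of 0.0719% of all microRNA counts in AT2 cells, against 1.05% in EC.

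The log2 difference of miR-146a-5p was -4.48 ± 0.39 (SE; limma, adjusted p = 5.15e-08), a 22.3-fold lower level in AT2 cells and the 6th largest difference of the 302. The AT2 library was lower in 9 of 9 shared specimens, by -4.52 ± 1.37 (SD, n = 9). Without EC P14 replicate 2 it was -4.69. It was called under all 33 alternatives, at -3.68 when scaled to the microRNA total. Before birth the difference was -4.74 ± 0.71 and over P7, P14 and P28 it was -3.82 ± 0.51, or -4.25 without EC P14 replicate 2.

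miR-142-3p, an arm of the blood-lineage hairpin, was lower in AT2 cells too, at levels close to background in some libraries. Others were well above it, such as the EC P1 library with 259 recovered counts against a limit of 36.4. The AT2 libraries had 14.9 and 58.4 at E16.5, 10.2 and 22.3 at E18.5, 15.1 and 7.15 at P1, 30.5 and 21.9 at P7, 30.3 and 48.7 at P14, and 14.9, 46.5 and 27.4 at P28, with 10 of 13 above background. The EC libraries had 73.3 and 91.6 at E16.5, 47.6 in the E18.5 library, 102 in the P1 library, 143 and 113 at P7, 98.8 and 185 at P14, and 131 and 172 at P28, with 9 of 10 above background. Only the EC E18.5 library, itself below its limit of 95.1, lay within the AT2 range, and from P7 on the cell types did not overlap. An AT2 range below the EC range at those 3 stages was seen for 14.6% of tested probes.

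The log2 difference of miR-142-3p was -2.11 ± 0.27 (SE; limma, adjusted p = 3.15e-06), and the AT2 library was lower in 9 of 9 shared specimens. It was called under all 33 alternatives. The size depended on how low values were treated, since with values below 95.1 raised to that level the difference was -0.28 (adjusted p = 0.0325). Without EC P14 replicate 2 it was -2.04.

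miR-223-3p, the myeloid microRNA, followed the same direction, also with some libraries close to background or below it. The AT2 libraries had 9.25 and 56.8 at E16.5, 28.4 and 24.8 at E18.5, 18.5 and 10.7 at P1, 16.85 and 20.6 at P7, 2.53 and 14.3 at P14, and 7.43, 15 and 44.1 at P28, with 8 of 13 above background. The EC libraries had 42.7 and 114 at E16.5, 143 in the E18.5 library, 113 in the P1 library, 52.1 and 79.2 at P7, 92.7 and 38.6 at P14, and 116 and 58.6 at P28, with 9 of 10 above background. The groups overlapped through AT2 E16.5 replicate 2 and AT2 P28 replicate 3, which were above the lowest EC library, EC P14 replicate 2.

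The log2 difference of miR-223-3p was -2.30 ± 0.37 (SE; limma, adjusted p = 3.72e-05), and the AT2 library was lower in 9 of 9 shared specimens. With AT2 libraries below background set to their limits, the geometric mean in AT2 cells was 3.77-fold lower. This is not a strict bound, since EC E16.5 replicate 1, at 42.7 under its limit of 48.9, was kept at its value. It too was called under all 33 alternatives, at -2.41 without EC P14 replicate 2 and at -0.18 (adjusted p = 0.000807) with values below 95.1 raised to that level.

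miR-142-5p, the other arm of the same hairpin, was also called lower in AT2 cells, with a log2 difference of -1.44 ± 0.35 (SE; limma, adjusted p = 0.00155). The AT2 libraries had 44.8 and 47.5 at E16.5, 68.2 and 206 at E18.5, 82.3 and 12.7 at P1, 15.4 and 36.9 at P7, 44.3 and 20.5 at P14, and 81.8, 57.01 and 40.6 at P28. The EC libraries had 186 and 172 at E16.5, 476 in the E18.5 library, 27.6 in the P1 library, 63.6 and 74.8 at P7, 198 and 130 at P14, and 293 and 51.4 at P28. All were above background, the ranges overlapped widely, and the AT2 library was the lower one in 8 of 9 shared specimens, P1 being the exception. Without EC P14 replicate 2 the difference was -1.49. Scaled to the microRNA total, the difference was -0.65 and no longer passed the test (adjusted p = 0.163).

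The scaled miR-142-5p value moved with the factor of the library. Within AT2 cells, log2 value and log2 factor correlated at Pearson r = 0.777 and Spearman rho = 0.758 (n = 13, permutation p = 0.00246 and 0.0037), and r was 0.829 without the 2 libraries farthest from the median factor. Within EC, r was 0.971 and rho 0.927 (n = 10, permutation p = 4e-05 and 0.00026), and r was 0.930 without the 2 farthest. Adjusted over the 24 such tests, which covered 6 members, both cell types and both measures, the p-values were 0.0197 and 0.0222 in AT2 cells and 0.00096 and 0.00312 in EC, and no other member passed. In AT2 cells 11 of the 302 tested probes, miR-142-5p included, had an r as high, the median being 0.20, and the recovered counts of miR-142-5p ran from 11 to 84, a 7.64-fold range. In EC no other tested probe had an r as high, and the median r of the 302 was 0.35. The recovered counts behind the EC values stayed between 50 and 96, a 1.92-fold range, while the microRNA totals of the same libraries spanned 15.72-fold. For miR-142-3p the recovered counts spanned 43.2-fold and r with the factor was -0.56. Whether the probe's count reflects RNA from the sample was not tested.

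**Figure D2:**
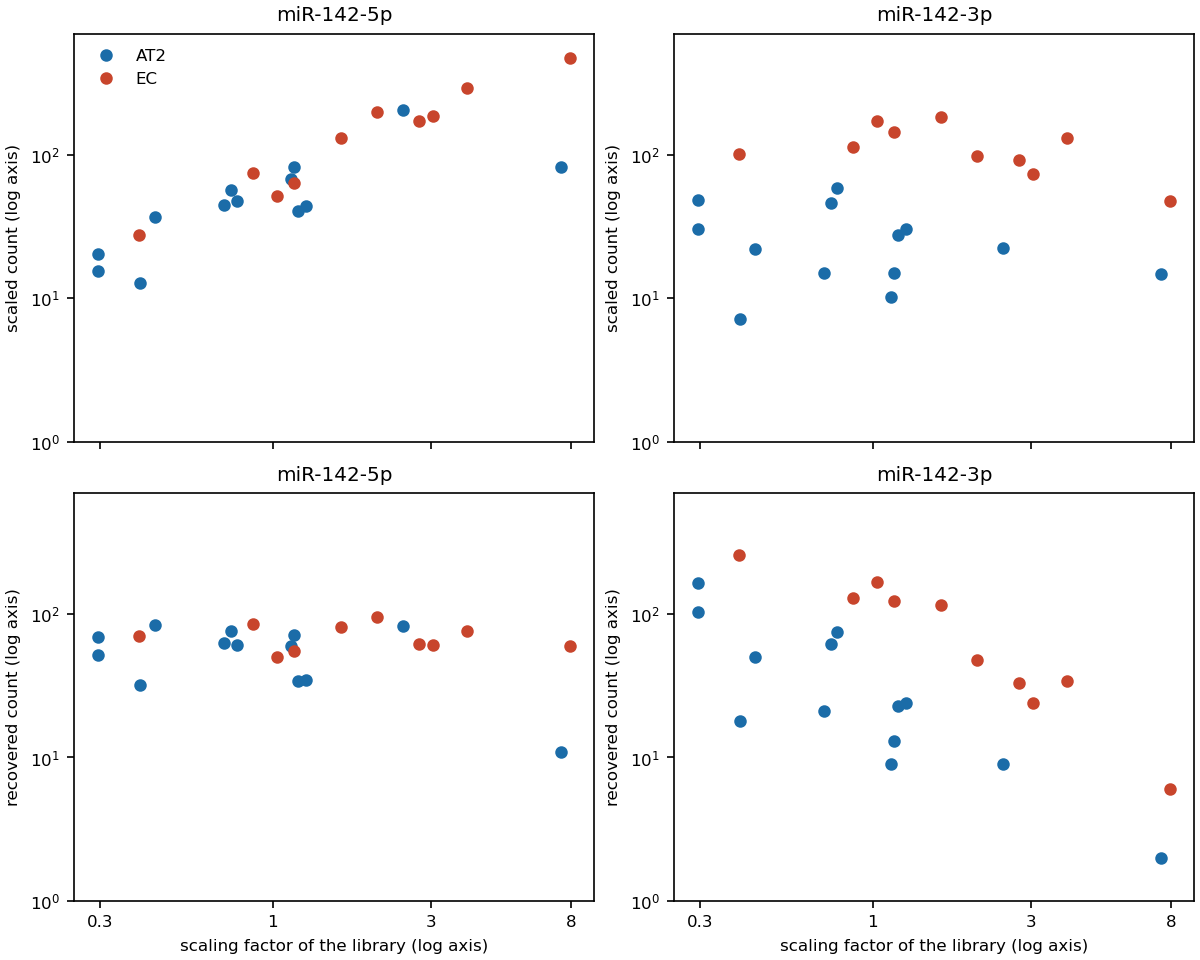
Scaled counts (top) and recovered counts (bottom) of the miR-142 arms against the scaling factor of each library, all on log axes; points are libraries, AT2 in blue and EC in red. For miR-142-5p the recovered count is level in EC, between 50 and 96, so the scaled count climbs with the factor, whereas for miR-142-3p the recovered count falls as the factor grows.

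The factor cancels in the ratio of miR-142-5p to miR-142-3p within a library, but libraries with a larger factor could still differ in this ratio. In EC it was 0.270 at the smallest factor, 0.394, and 10 at the largest, 7.93. In AT2 cells it was 0.505 at the smallest factor, 0.296, and 5.4997 at the largest, 7.43. The relation of the ratio to the factor was not tested. The ratio ran from 0.421 to 5.4997 in the 10 AT2 libraries whose miR-142-3p was above background, and from 0.270 to 2.54 in the 9 such EC libraries. The 5.4997 was 11 recovered counts over 2 in AT2 P28 replicate 1, and AT2 P1 replicate 1 had 5.46. Higher ratios, up to 9.22 in AT2 cells and 10 in EC, were over a miR-142-3p value not above background. A hairpin releases its arms together, but the probes may differ in efficiency, so only the spread of this ratio can be read and not its level. Over the 23 libraries the arms correlated at r = 0.358 on the log2 scale, a description over libraries that share stages and cell types. miR-142-3p correlated at 0.824 with miR-150-5p and at 0.818 with miR-146a-5p.

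**Figure D3:**
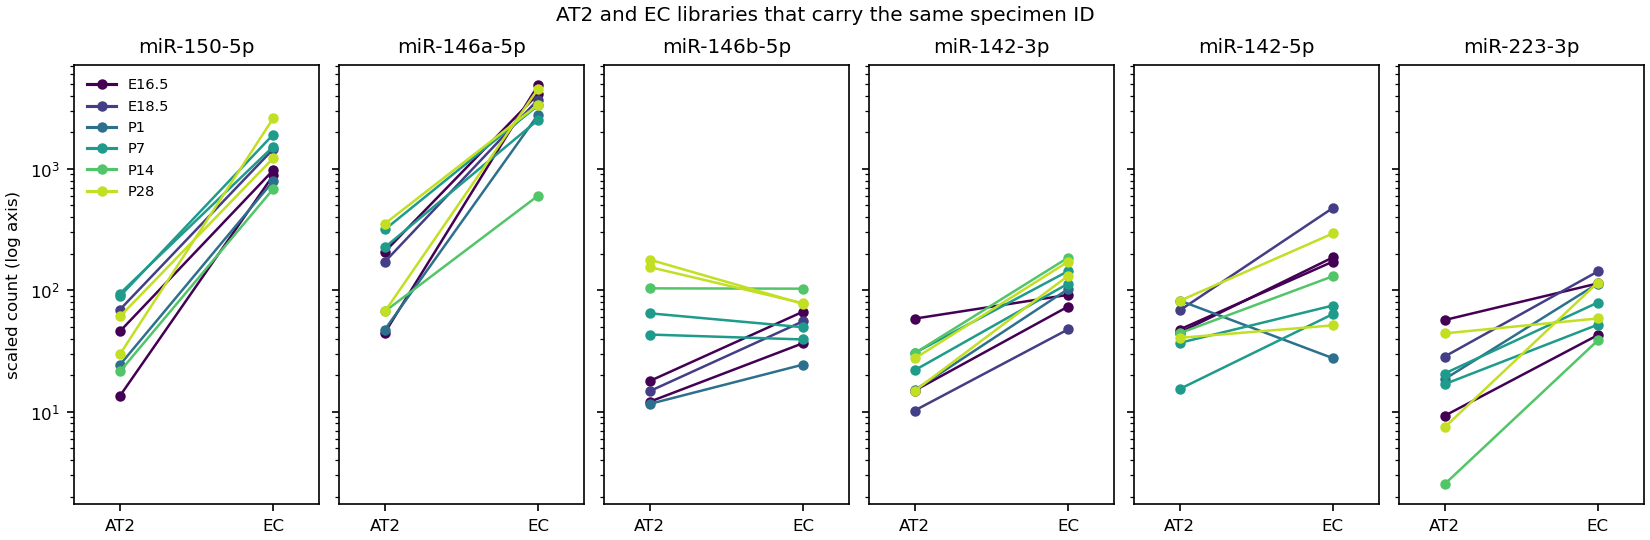
Scaled counts (log axis) of 6 microRNAs in the AT2 and the EC library of each of 9 specimens, joined by a line and coloured by stage. All 9 lines go up to EC for miR-150-5p, miR-146a-5p, miR-142-3p and miR-223-3p and 8 of 9 do for miR-142-5p, while for miR-146b-5p the AT2 library is the higher one in 5 specimens, all from P7 or later.

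miR-146b-5p was the member that differed in pattern: it was lower in AT2 cells before birth and higher in them later with the values as deposited. With values below 95.1 raised to that level neither call held, and the later difference was 0.75 (limma, adjusted p = 0.0835). All early values lie below 95.1, so that setting makes them equal and cannot test the difference before birth. The AT2 libraries had 12.1 and 17.9 at E16.5, 14.8 and 27.3 at E18.5, a mean of 13.7 ± 3.05 (SD, n = 2) at P1, 43.2 and 64.5 at P7, 104 and 459 at P14, and 178, 344 and 155 at P28. The EC libraries had 36.6 and 66.6 at E16.5, 55.5 in the E18.5 library, 24.4 in the P1 library, 39.3 and 49.6 at P7, 101 and 103 at P14, and 77.2 and 78.1 at P28. Every AT2 library from P7 on had a higher value than every earlier AT2 library, and every AT2 library at P14 and P28 was above all 10 EC libraries. The narrowest gap was 103.66 in AT2 P14 replicate 1 against 102.99 in EC P14 replicate 2. As a share of all microRNA counts, AT2 P14 replicate 1 (0.0494%) and AT2 P28 replicate 3 (0.0316%) were below EC P14 replicate 2 (0.0498%). How many tested probes had such a gap was not counted. Of the early libraries, 1 of 4 in AT2 cells and 1 of 3 in EC was above background, and the limit of AT2 E18.5 replicate 2, 57.2, exceeded the 43.2 of a P7 library.

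In AT2 cells miR-146b-5p rose, with a log2 difference of 2.90 ± 0.36 for P7, P14 and P28 minus E16.5 and E18.5 (SE, 7 and 4 libraries; limma, adjusted p = 2.93e-06). It was the only one of the 6 tested members called in this comparison, in which 11.3% of tested probes were called higher and 40.1% lower. With median-shifted values miR-142-3p was called as well (1.35, adjusted p = 0.00875), and so it was with quantile normalization (1.31) and with background subtracted (1.94). The median log2 change was 0.15 over the members and -0.64 over all tested probes. A late range wholly above the early one was seen for 7.28% of probes. With the early libraries below background set to their limits, the late geometric mean was at least 6.26-fold higher. The F-test over all 6 stages was also called (adjusted p = 6.89e-06), as it was for 49.0% of probes. With values below 95.1 raised to that level, the late minus early difference was 0.78 and not called (adjusted p = 0.105).

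By geometric mean of miR-146b-5p, the AT2 stages after birth ordered P14, P28, P7 and P1. P28 lay above P7, and P7 above P1, without overlap, while P14 overlapped with P28. E16.5 and E18.5, with 3 of 4 libraries not above background, were not placed. In EC the stages after birth ordered P14, P28, P7 and P1, each apart from the next, with P1 being 1 library, and all EC values spanned 24.4 to 103 scaled counts. There the late minus early difference was 0.42 ± 0.42 (SE, 6 and 3 libraries; limma, adjusted p = 0.444), with a 95% interval from -0.47 to 1.31, and 0.42 without EC P14 replicate 2. With quantile normalization it was 1.33 and called (limma, adjusted p = 0.0196). The EC F-test over stages was then called for miR-146b-5p too (adjusted p = 0.0452).

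The AT2 change exceeded the EC change by 2.48 ± 0.56 on the log2 scale (SE; limma interaction contrast, adjusted p = 0.0149). It was called for 1 of the 6 members, and for 6.29% of tested probes in either direction, 2.98% of tested probes being called higher. Without EC P14 replicate 2 the value was 2.48 (adjusted p = 0.0133). Scaled to the microRNA total it was 2.41 and no longer called (adjusted p = 0.0969), and with values below 95.1 raised to that level it was 0.75 (adjusted p = 0.55).

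Taken at the early ages alone, all 6 tested members were called lower in AT2 cells than in EC, where 28.1% of tested probes were. With values below 95.1 raised to that level 4 of 6 were, miR-142-3p and miR-146b-5p being the exceptions. All their early values lie below 95.1, so that setting makes them equal and cannot test their difference. The median was -1.96 over the members and -0.50 over all tested probes. For miR-146b-5p the difference was -1.55 ± 0.46 (SE, 4 and 3 libraries; limma, adjusted p = 0.0124), and the AT2 values as listed lay wholly below the EC values, as they did for miR-150-5p and miR-146a-5p and for 28.8% of tested probes. The smaller differences of miR-142-5p (-1.96), miR-142-3p (-1.51) and miR-223-3p (-1.96) lost their calls without EC E18.5 replicate 1, and also without AT2 E18.5 replicate 1, leaving 3 of 6. The calls of miR-142-3p and miR-223-3p were also lost without AT2 E16.5 replicate 1 and without EC E16.5 replicate 2. That of miR-223-3p was lost too without AT2 E18.5 replicate 2 and with background subtracted (-2.87; limma, adjusted p = 0.0609). Scaled to the microRNA total, 2 of 6 were called, and miR-146b-5p was at -0.63 (adjusted p = 0.509). With quantile normalization miR-146b-5p was at -0.91 (adjusted p = 0.105) and miR-142-3p at -0.98 (adjusted p = 0.0818), neither being called. Early miR-146b-5p was thus measured on 2 libraries above background in all, and the limit of the EC E18.5 library, 95.1, was the highest of the 23.

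Over P7, P14 and P28, 5 members were lower in AT2 cells and miR-146b-5p was higher, where 63.2% of tested probes were called in either direction and 47.7% were lower. The median was -2.24 over the members and -0.60 over all tested probes. The late difference of miR-146b-5p was 0.93 ± 0.32 (SE, 7 and 6 libraries; limma, adjusted p = 0.0188). It lost its call without AT2 P7 replicate 2 (0.83, adjusted p = 0.0564) and without AT2 P14 replicate 2 (0.57, adjusted p = 0.0921), the library with the 459. It also lost it with values below 95.1 raised to that level (0.75, adjusted p = 0.0835), where 3 of the 6 members kept theirs. Without EC P14 replicate 2 it was 0.93 (adjusted p = 0.0296), and the late differences of miR-142-3p, miR-223-3p and miR-142-5p were -2.01, -2.53 and -1.75. Averaged over the 6 stages the difference was -0.19 ± 0.25 (adjusted p = 0.519), with a 95% interval from -0.72 to 0.34.

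**Figure D4:**
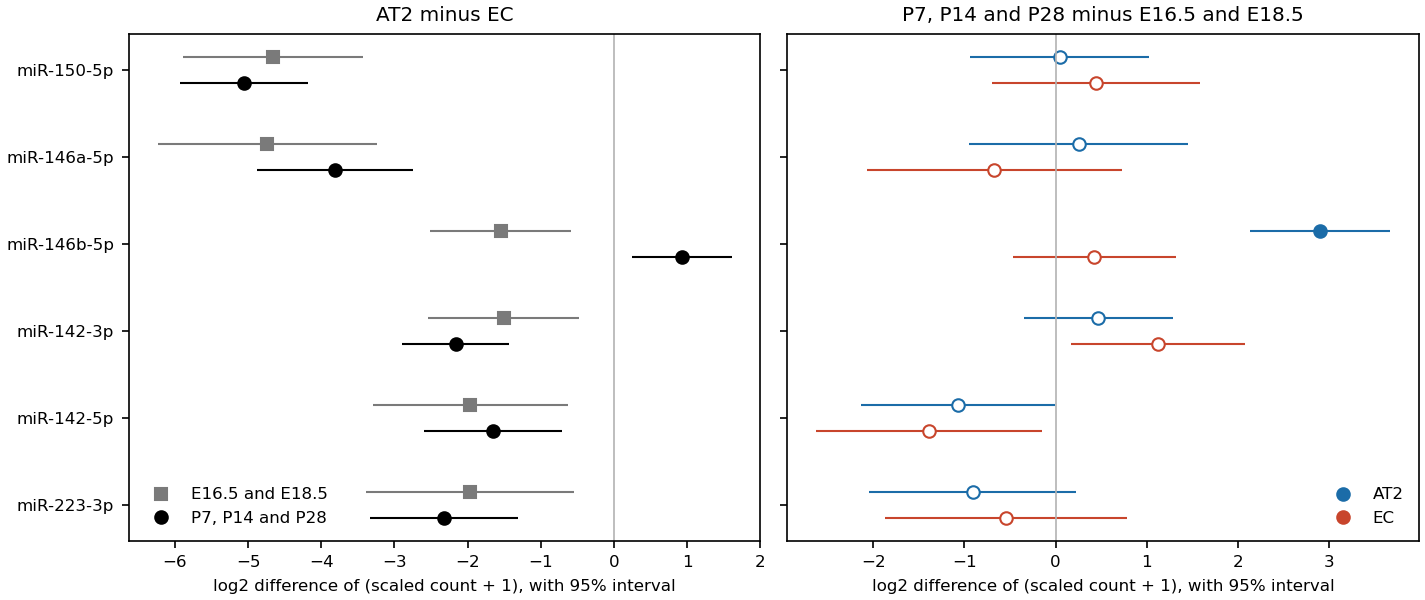
Log2 differences with 95% intervals for 6 microRNAs: left, AT2 minus EC before birth (squares) and over P7, P14 and P28 (circles); right, late minus early in AT2 cells (blue) and EC (red). Filled symbols passed the adjusted threshold; miR-146b-5p is the only one on both sides of 0 at left and the only one filled at right with the values as deposited, at 2.90 in AT2 cells.

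Within a library the ratio of miR-146b-5p to miR-146a-5p is free of the scaling factor, and only its change between libraries can be read. In AT2 libraries it was between 0.0827 and 0.270 at E16.5 and E18.5, where 3 of 4 miR-146b-5p values were not above background. It was 0.244 and 0.385 at P1, 0.136 and 0.286 at P7, and between 0.439 and 3.56 at P14 and P28. The P1 and P7 libraries thus overlapped with the range before birth, and those at P14 and P28 lay above it. In EC it was between 0.00752 and 0.172, the highest in EC P14 replicate 2. miR-146a-5p itself was not called for stage in AT2 cells (late minus early 0.25 ± 0.57, adjusted p = 0.714) or in EC (-0.67 ± 0.66, adjusted p = 0.435, or -0.24 and 0.787 without EC P14 replicate 2). Its AT2 stages ordered P7, E18.5, P14, P28, E16.5 and P1 with each pair of neighbours overlapping. In EC they ordered E16.5, P28, E18.5, P7, P1 and P14, and E18.5, which is 1 library, alone was apart from the next.

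No tested member was called between the late and the early EC libraries, where 37.1% of tested probes were, and at an unadjusted p under 0.05 miR-142-3p and miR-142-5p passed. The miR-142-3p difference was 1.12 ± 0.46 (SE; adjusted p = 0.0582), and each of its 6 late EC libraries was above each of the 3 early ones, as for 6.95% of probes. It was called with median-shifted values (1.73, adjusted p = 0.00814) and with quantile normalization (2.06, adjusted p = 0.00076), and not without EC P14 replicate 2 (0.97, adjusted p = 0.117). The miR-142-5p difference was -1.39 ± 0.59 (adjusted p = 0.0677) and was called with the specimen as a block (-1.50, adjusted p = 0.0436). Without EC E18.5 replicate 1, the EC library with the largest factor, it was -0.68 (adjusted p = 0.436), and without EC P14 replicate 2 it was -1.29 (adjusted p = 0.121). The median change over the members was -0.06, against -0.57 over all tested probes. The EC F-test over stages called none of the members and 27.2% of all tested probes.

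In AT2 cells the F-test over stages called miR-150-5p beside miR-146b-5p, at an adjusted p of 0.0460. miR-150-5p lost this call with a pseudocount of 10 (limma F-test, adjusted p = 0.0657) and with background subtracted (adjusted p = 0.112). All AT2 values of miR-150-5p lie below 95.1, so raising values to that level makes them equal and cannot test it. Its stages ordered P7, E18.5, P14, P28, E16.5 and P1, and only E18.5 and P14 among the neighbours were apart. Leaving out single libraries ended this call in 10 of 23 cases, with adjusted p-values up to 0.123, and the late minus early difference was 0.04 ± 0.46 (adjusted p = 0.928). In EC, miR-150-5p ordered P28, P7, E18.5, P14, E16.5 and P1, with P7 apart from E18.5 and E16.5 apart from P1, where E18.5 and P1 are 1 library each. Its late minus early difference there was 0.44 ± 0.54 (adjusted p = 0.518), or 0.74 (adjusted p = 0.284) without EC P14 replicate 2.

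miR-142-3p in EC ordered P28, P14, P7, P1 and E16.5, with P7 apart from P1 and P1 from E16.5, and the E18.5 library, not above background, was not placed. In AT2 cells its neighbouring stages overlapped throughout, and the late minus early difference was 0.47 ± 0.39 (adjusted p = 0.315). For miR-223-3p the late minus early difference passed the test in neither cell type, at -0.91 ± 0.54 in AT2 cells (adjusted p = 0.160) and -0.54 ± 0.63 in EC (adjusted p = 0.497, or -0.34 and 0.711 without EC P14 replicate 2). The neighbouring stages of miR-223-3p overlapped throughout in AT2 cells, and in EC E18.5 alone was apart from the next, P1. Each of these EC stages is 1 library, so they are apart unless equal. Other EC orders that involve E18.5 or P1 also rest on 1 value for that stage. For miR-142-5p in AT2 cells the change was -1.07 ± 0.51 (adjusted p = 0.0835), its neighbouring stages overlapped throughout, and in EC its E18.5 library was apart from E16.5 and P7 apart from P1.

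miR-155-5p, the activation-induced member, was not above background in any of the 23 libraries and was not tested. In 9 columns values below 1 had been replaced by 1, and where miR-155-5p was at that floor its count cannot be recovered. In every other library its recovered count was 1. Before birth that count of 1 stood for scaled values up to 2.48 in AT2 cells and of 2.78 to 7.93 in EC. The 1.00 of the AT2 E16.5 libraries is the floor. The scaled values ran from 1.00 to 7.43 in AT2 libraries and from 1.00 to 7.93 in EC, and the highest in each cell type was in the library with the largest factor, AT2 P28 replicate 1 and EC E18.5 replicate 1. A level below the background limits of 6.16 to 95.1 was therefore not detectable at this depth, and no fold is given.

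The label of the group could be checked only in part. The 4 messenger RNA probes of the panel are general housekeeping genes, and it has no probe for a protein-coding leukocyte gene. Other immune microRNAs on a list of 27 names could not be placed, because the tables used here pair none of the identifiers with a name, so 0 of 27 were described. Leukocytes or platelets in the CD31 sort were not measured, and their part in the higher EC values of these microRNAs was not tested.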

How the data were processed

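Total RNA of sorted lung cells was prepared and read with the nCounter mouse miRNA kit and panel, per the labels' protocols, and the submitters' processing notes name the build mm10 and no tool. Groups follow the labels' cell type and age, and table columns were matched to samples by the descriptions. The values the authors deposited are a signal, barcode counts times 1 factor per sample, as the values show: divided by the smallest spacing in their column, 100% of 13861 values were whole within a tolerance of 0.1. A floor of 1 replaces smaller values in 9 columns, and the ERCC rows are not scaled. How the factors were chosen is not given in the sources used here. A larger factor raises the background of a library with its values. Depth was 26640 to 571724 microRNA counts per library.

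The test was limma 3.58.1 in R 4.3.3 (lmFit and eBayes with trend) on log2(value + 1), with 12 group means over all 23 libraries, a two-sided p and Benjamini-Hochberg adjustment. Groups of 1 library borrow the spread of the others. The added 1 shrinks differences of low probes on this scale. A probe at background reads higher where the factor is larger, so AT2 minus EC differences of low probes may also be overstated. Late means P7, P14 and P28 with equal weight per stage, and early E16.5 and E18.5. Bounds set libraries of the lower group that are below background to their limit. Correlations with the factor used 100000 permutations. The fit was checked on simulated counts with known changes. Specimen pairing comes from the IDs in the titles, which both cell types carry in 9 cases. Residuals of paired libraries correlated at -0.02 to 0.31 over probes, and a fit with the specimen as a random block used a correlation of 0.23. All members are named whatever their values, and for each tested member the 2 most alike other probes. The members, lists and tests were chosen with earlier results of these data known. Lists of cell type markers by microRNA name could not be matched and were not tested.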

Additional observations from a re-analysis of the deposited data

Results flagged for a closer look

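The change of miR-146b-5p from E16.5 and E18.5 to P7, P14 and P28 differed between AT2 cells and EC, and the test of that difference gave 2.48 ± 0.56 on the log2 scale (AT2 change minus EC change; limma, adjusted p = 0.0149). The AT2 change was 2.90 and the EC change 0.42. With quantile normalization the EC change was 1.33 and called (limma, adjusted p = 0.0196). Leaving out any 1 library gave 2.12 to 2.83, with adjusted p-values up to 0.0470. The call was lost when scaled to the microRNA total (2.41, adjusted p = 0.0969). It was also lost with values below 95.1 raised to that level (0.75, adjusted p = 0.55). Of the early libraries, 1 of 4 in AT2 cells and 1 of 3 in EC was above background.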

How the results depend on the processing

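Each of 48 member results was recomputed under 33 alternatives, 23 of them leaving out 1 library; of the 1584 values, 1498 kept their direction and side of the threshold where either was called, 44 lost a call, 41 gained one and 1 reversed. The reversal was the AT2 change minus EC change of miR-223-3p, at 0.31 (limma, adjusted p = 0.0147) with values below 95.1 raised to that level, against -0.36. All AT2 values of miR-223-3p lie below 95.1 and became equal there, so this contrast holds the EC change alone, with its sign turned. In that setting miR-146b-5p lost its call for the same contrast, so the count stayed at 1 through miR-223-3p. The counts of members called moved as follows. With that common floor they were 4 of 6 for AT2 minus EC before birth, 3 late, 0 for AT2 late minus early, 3 for EC late minus early, 0 for the AT2 F-test and 1 for the EC F-test. With a pseudocount of 10 they were 2 for EC late minus early, 1 for the AT2 F-test and 1 for the EC F-test. A median shift gave 2 in AT2 cells and 1 in EC for late minus early, quantile normalization 2 and 2, and background subtraction 2 and 1. Quantile normalization gave 3 for the EC F-test, and no filter on low values 1. Scaling to the microRNA total, chosen after seeing the data, gave 2 before birth and 0 for the difference of changes. With the specimen as a replicate block, EC late minus early and the EC F-test each called 1, miR-142-5p in both (-1.50, adjusted p = 0.0436, and adjusted p = 0.0432), and the block changed no other call. Without single libraries the counts ran from 3 to 6 before birth, 5 to 6 late, 1 to 2 for AT2 late minus early, 0 to 1 for EC late minus early, 1 to 3 for the AT2 F-test and 0 to 1 for the EC F-test. The causes were not tested. The planned edgeR test on recovered counts was not run, because 9 columns hold a floor of 1 in place of smaller values. Leaving out EC P14 replicate 2, EC P28 replicate 2 and the EC P1 library, 3 in all, kept the AT2 minus EC calls, at -5.19 for miR-150-5p and -4.49 for miR-146a-5p. Depth limits miR-142-3p, miR-223-3p and early miR-146b-5p in the libraries where they lie near background.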

Other observations

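Over the 23 libraries, the probes whose log2 values were most like each member were named by identifier, since the tables used here do not pair identifiers with names. For miR-150-5p they were MIMAT0000648 (Pearson r = 0.976) and MIMAT0000138 (0.972), and for miR-146a-5p MIMAT0000137 (0.971) and MIMAT0000138 (0.97). MIMAT0000137 (0.877) and MIMAT0000138 (0.876) were also the nearest to miR-223-3p. miR-142-3p was most like MIMAT0000225 (0.887) and MIMAT0000605 (0.828). For miR-142-5p they were MIMAT0004546 (0.930) and MIMAT0001572 (0.922), and for miR-146b-5p MIMAT0000530 (0.836) and MIMAT0005291 (0.775). These are descriptions over 296 candidate probes and 23 libraries that share cell types and stages. Among the members, miR-150-5p and miR-146a-5p were alike at 0.964, and the seed-sharing miR-146a-5p and miR-146b-5p at 0.140.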
